A study of Mus musculus with 2 samples.

Results

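Autosomal regions of mouse embryonic brain that were called as DNA N6-methyladenine (6mA) peaks at both embryonic day 8.5 (E8.5) and embryonic day 9.5 (E9.5) are described here. They were the peaks of either list on chromosomes 1 to 19, without chromosomes 4 and 8, that overlapped a peak of the other list by at least 1 bp. Peaks centred between 85 and 86 Mb of chromosome 1 or between 43 and 44 Mb of chromosome 14 were left out. The E8.5 list held 91 such peaks among the 515 on these chromosomes (17.7%) and the E9.5 list held 90 among 691 (13%). The whole lists held 1006 and 1239 peaks. The members formed 91 overlapping pairs, out of 289 in the series. In 16 pairs the pileup, the number of fragments that cover the summit, was 1000 or more, and these satellite-like stacks are described apart from the other 75 pairs. The members were chosen by the overlap of the called positions of both lists, so their recurrence is a description and was not tested. Where a pair of values is given for a region, the first is from E8.5 and the second from E9.5, and coordinates refer to mm10 and, unless stated otherwise, to the peak called at E8.5.

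The mapping method was MeDIP-seq: sheared genomic DNA is pulled down with an antibody to 6mA and then sequenced. The study had 1 library per stage, each of genomic DNA labelled as brain with no treatment, and the strain, the sex and the number of embryos pooled are not given in the sources used here. After duplicate filtering, 15375941 E8.5 and 15349825 E9.5 fragments were kept, and peaks of either stage were called over a shared input of 9603633 fragments, and no source used here gives the stage of that input. The stages come from the sample labels alone, because the library names in the peak files carry no stage. The protocols also describe embryos with neural tube defects after methotrexate under a low-folate diet, and stem cells grown without folate, and neither was analysed here. With no replicate of either stage, no difference between stages was tested, and every interval given is an exact 95% interval that covers counting error only.

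In 6mA, adenine carries a methyl group on its amino nitrogen. The mark is well known from bacteria, while its amount and role in mammals are debated, and the enzyme ALKBH1 has been proposed to remove it in mouse cells. Heterochromatin marked by histone H3 lysine 9 trimethylation packs much of the repeated DNA of the mouse genome, including satellite arrays at centromeres and copies of transposable elements. Reads from DNA present in many near-identical copies can pile up where a genome assembly holds only a few of them, in an immunoprecipitate and in its input alike.

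The sequences of the recurring regions themselves were not read, because no genome of the build was used. The gene starts closest to recurring peaks were taken from the RefSeq promoter windows of GRCm38.p6, the assembly also called mm10, which run from 250 bases before to 50 bases after a start. None of the 88 pairs on the chromosomes this table covers overlapped one of the 27901 windows on those chromosomes, and 4 pairs lay within 1 kb of one. Those 4 pairs neighboured 3 gene starts, which are shown because they mark the closest approach of a recurring peak to a promoter. Each distance was taken from the nearer peak of a pair. For the 2 pairs at 2700054A10Rik that was the 1 E9.5 peak that they share. Capitals mark the 50 bases from the gene start onward, and each sequence reads 5′ to 3′ on the strand of its gene.
Duxf3 promoter: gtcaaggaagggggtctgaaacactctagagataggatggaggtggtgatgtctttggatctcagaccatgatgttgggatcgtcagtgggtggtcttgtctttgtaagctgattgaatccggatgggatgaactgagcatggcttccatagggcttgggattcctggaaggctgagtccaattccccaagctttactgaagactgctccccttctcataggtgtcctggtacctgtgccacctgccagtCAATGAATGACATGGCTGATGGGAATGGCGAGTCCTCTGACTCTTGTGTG
2700054A10Rik promoter: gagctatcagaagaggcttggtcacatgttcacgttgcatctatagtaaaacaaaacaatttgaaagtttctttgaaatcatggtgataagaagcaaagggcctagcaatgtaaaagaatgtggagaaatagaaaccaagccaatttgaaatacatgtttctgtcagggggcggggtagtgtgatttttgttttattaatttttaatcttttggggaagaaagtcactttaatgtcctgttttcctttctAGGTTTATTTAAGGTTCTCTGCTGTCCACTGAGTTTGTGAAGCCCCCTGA
Gm41530 promoter: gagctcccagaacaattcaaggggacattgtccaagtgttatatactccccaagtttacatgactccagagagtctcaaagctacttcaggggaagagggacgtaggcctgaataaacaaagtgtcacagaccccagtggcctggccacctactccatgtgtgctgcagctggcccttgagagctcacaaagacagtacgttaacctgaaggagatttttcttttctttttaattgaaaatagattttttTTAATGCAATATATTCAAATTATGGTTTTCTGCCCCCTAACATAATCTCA

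Duxf3 belongs to the Dux family of double homeobox genes, and its window lay at chr10:58233040-58233339 on the minus strand, 29 bp from a recurring peak. The window of the long non-coding gene 2700054A10Rik lay at chr17:13554045-13554344 on the minus strand, 965 bp from the nearest recurring peak. That of Gm41530, another long non-coding gene, lay at chr17:13655596-13655895 on the plus strand, 454 bp away. Adenine or thymine made up 49% of the Duxf3 window, 62.7% of the 2700054A10Rik window and 57.7% of the Gm41530 window, and the windows held 3, 2 and 2 CpG. The median over the 32851 windows of the table was 47.3%. Of those windows, 57% were as rich in adenine and thymine as Duxf3 or less so, 93.4% as 2700054A10Rik or less so, and 85.2% as Gm41530 or less so. Over all peaks on the same chromosomes, 2 of 505 at E8.5 and 2 of 664 at E9.5 overlapped a promoter window.

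Mir101c, a microRNA gene, had its mature sequence 434 bp from a stack on chromosome 9, measured to the peak called at E9.5. It is shown with the other mature miR-101 sequences, since it belongs to a family with copies elsewhere in the genome and was the only microRNA beside a stack. Capitals mark the seed, bases 2 to 8, the stretch by which a microRNA pairs with its targets, and the sequences are those of RefSeq.
mmu-miR-101c: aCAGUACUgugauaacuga
mmu-miR-101a-3p: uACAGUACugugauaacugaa
mmu-miR-101b-3p: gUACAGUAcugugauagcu

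The 19 bases annotated for mmu-miR-101c are found inside mmu-miR-101a-3p from its base 2 onward. Because the annotated starts differ, no seed is shared between the 3 sequences as annotated. Mir101a lies on chromosome 4, which was not among the chromosomes used, and Mir101b lies on chromosome 19, which held no recurring peak.

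The 16 stacks lay at only 4 loci, where a locus is a run of pairs no more than 100 kb apart. A stretch of 37960 bp near the start of chromosome 9, chr9:3000287-3038246, held 11 of them. Another 2 lay at chr2:98662448-98667693, 2 at chr14:19416943-19418936, and 1 at chr9:35305217-35305627 inside the long non-coding gene Gm33838. All but 2 of the 16 had no annotated gene of any kind within 2 kb, the exceptions being the Gm33838 stack and the stack beside Mir101c. The share of all peaks without such a gene is not given here. Stacks made up 3.3% of the E8.5 peaks on these chromosomes and 2.46% of the E9.5 peaks.

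The tallest stack, chr2:98666183-98667674, held 106596 fragments in the E8.5 list and 109823 in the E9.5 list, over local backgrounds of 96971 and 101258 fragments. The background is the number of fragments that the peak caller expected at the summit from the input, and the fold is the authors' ratio of pileup to background. Its folds were 1.10 and 1.08, the lowest of the 16 at both stages. The largest pileups on the first stretch of chromosome 9 were 40028 and 42311 fragments at chr9:3024325-3024689, with folds of 1.19 and 1.21. The largest folds were 1.78 and 1.79, at chr9:3033686-3033980, where the stack was also the smallest, with 2275 and 2388 fragments. The stack beside Mir101c, chr9:3037839-3038239, held 4013 and 4244 fragments with folds of 1.76 and 1.73. Across the 16, the tallest stack thus had the lowest folds and the smallest stack the highest.

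The other stacks lay between these. The second stack of chromosome 2, at chr2:98662448-98662838, held 20055 fragments in the E8.5 list and 20565 in the E9.5 list, and its fold was 1.17 at E9.5. On chromosome 14, chr14:19416943-19418234 held 28880 and 30020 fragments and chr14:19418591-19418932 held 18958 and 20213, with folds from 1.15 to 1.28 over both. The stack in Gm33838 held 32757 and 33205 fragments with folds of 1.19 and 1.11. On chromosome 9 the remaining 8 stacks held from 5546 to 23438 fragments at E8.5, and a day later from 5758 to 25101. A q-value far below 0.05 was listed for all 16 stacks at both stages, with −log10 q from 110.4 to 573 and from 65.6 to 723, although no fold reached 2.

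Summits of stacks were placed alike at both stages. The distance between the summits was at most 11 bp, with a median of 1 bp. The order of the pileups was the same at both stages (Spearman's rho 1 across 16 stacks), and that of the folds nearly so (rho 0.968). Both orders are descriptions across positions that share an input, and stacks of 1 locus may share sequence. All 16 pileups were higher at E9.5, and so were all 16 backgrounds, although both backgrounds come from the same input. The pileup ratio of E9.5 to E8.5 per kept fragment ran from 1.015 to 1.122 with a median of 1.06, and in 14 stacks its interval lay above 1. The mean fragment was 271 bp long at E9.5 and 256 bp at E8.5, a ratio of 1.059, so that the same number of fragments covers more bases at E9.5. Divided by that ratio, 10 of the 16 stacks remained above 1, with a median of 1.005. In each list 1 stack had no partner, chr9:3018399-3018658 with 8228 fragments at E8.5 and chr9:3012789-3013336 with 2461 at E9.5, both inside the stretch that holds the 11 stacks.

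The cut at 1000 fragments fell in a wide gap. Below it, the tallest members held 504 fragments in the E8.5 list and 635 in the E9.5 list, both on chromosome 17, and above it the smallest held 2275 and 2388.

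**Figure D1:**
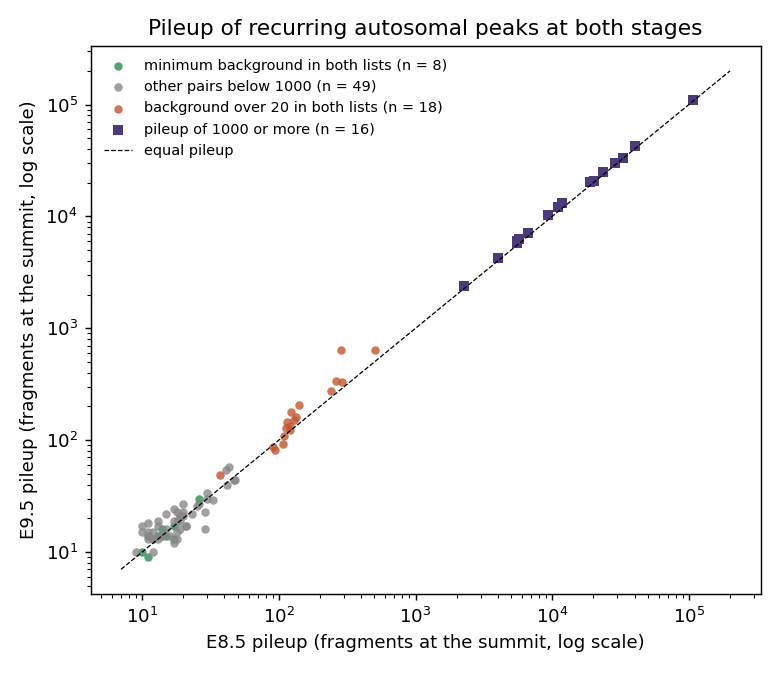
Pileup of the 91 pairs, in fragments covering the summit, at E8.5 (horizontal) and E9.5 (vertical), both on log scales, with the line of equal pileup. Squares are the 16 stacks, which lie along the line from 2275 fragments up, and circles are the 75 pairs below 1000, coloured by whether the background was the genome-wide minimum in both lists, over 20 fragments in both lists, or neither.

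Below 1000 fragments, recurring peaks stood on deeper input than the peaks without a partner on the same chromosomes. The median background was 6.40 fragments for the 75 recurring E8.5 peaks and 3.05 for the 423 without a partner. At E9.5 it was 6.13 for 74 recurring peaks and 3.14 for 600 others. The values of 3.05 and 3.14 are the genome-wide minimum that the peak caller applies where the local input is lower. That minimum was the background of 13 recurring E8.5 peaks (17.3%, interval 9.57% to 27.8%) and 12 recurring E9.5 peaks (16.2%, 8.67% to 26.6%). All peaks of the same chromosomes showed it in 58.6% and 60.5%, and peaks without a partner in 68.3% and 67.7%. Backgrounds over 20 fragments were found under 20 recurring E8.5 peaks (26.7%) and 17 recurring E9.5 peaks (23.0%), against 5 (1.18%) and 4 (0.667%) of the peaks without a partner. Over all peaks of these chromosomes, stacks included, the shares were 8.16% and 5.5%.

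**Figure D2:**
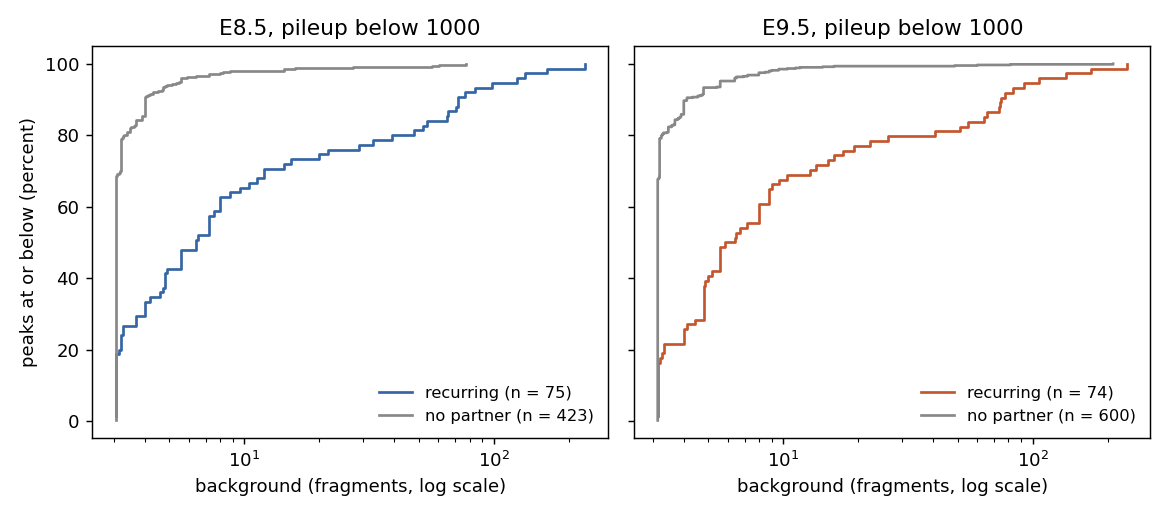
Share of peaks (percent) at or below each background (fragments, log scale) for peaks with a pileup below 1000, with E8.5 on the left and E9.5 on the right. The grey lines of the 423 and 600 peaks without a partner start at the genome-wide minimum with 68.3% and 67.7% of peaks there, and the coloured lines of the 75 and 74 recurring peaks reach 232 and 239 fragments.

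Pileup, length and q-value differed in the same direction, while the median folds lay closer together. The median pileup of recurring peaks was 19 and 21 fragments, against 10 for peaks without a partner at either stage. The median length was 435 and 456 bp against 303 and 328 bp. A q of at most 0.05 was listed for 32 recurring E8.5 peaks (42.7%, interval 31.3% to 54.6%) and 37 recurring E9.5 peaks (50%, 38.1% to 61.9%), where 11.8% and 10.6% of all peaks on these chromosomes reached it. The peaks without a partner reached it in 2.84% and 3.17%. The median fold of recurring peaks was 2.70 and 2.67, against 2.48 and 2.62. The recurring folds were also more spread, with quartiles of 2.04 and 3.33 at E8.5 against 2.40 and 2.96 for peaks without a partner. A longer or taller peak has more room to overlap another, and the part of pileup, length and shared input in the recurrence was not tested.

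Within the 75 pairs, 25 had a q of at most 0.05 at both stages, 7 at E8.5 alone, 13 at E9.5 alone and 30 at neither. The summits lay a median of 68 bp apart, within 50 bp in 34 pairs and within 200 bp in 56. The overlap covered a median of 98.5% of the shorter peak. Across pairs, the order was close between stages for the background (Spearman's rho 0.935) and the pileup (0.906) and less close for the fold (0.643). Among the 27 pairs with a background of at most 5 fragments in both lists, rho for the pileup was 0.42. These correlations describe positions in 2 libraries that share an input. The 3 smallest overlaps were 33 bp at chr1:77335360-77335663 (11 fragments in the E8.5 list and 9 in the E9.5 list), 61 bp at chr3:92259226-92259535 (17 and 19) and 62 bp at chr13:12785722-12786233 (10 and 10). Just outside the rule, an E8.5 peak at chr7:106253933-106254421 with 10 fragments ended 93 bp short of an E9.5 peak with 8. Another E8.5 peak, at chr13:84835807-84836087 with 10 fragments, ended 135 bp from an E9.5 peak with 9. A further gap, of 195 bp, separated the E8.5 peak chr5:25945829-25946092, with 11 fragments, from an E9.5 peak that is a member through another E8.5 peak.

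Pileups of the pairs below 1000 were higher at E9.5 in 47, equal in 7 and lower in 21. The share of 62.7% stood beside 58.5% over all 289 pairs of the series. The ratio of E9.5 to E8.5 per kept fragment had a median of 1.085, quartiles of 0.956 and 1.27 and a range from 0.553 to 2.22. The median over all 289 pairs was 1.068, and divided by the ratio of fragment lengths the 2 medians were 1.025 and 1.009. A ratio above 1.5 was seen in 4 of the 75 pairs, where 7.61% of all pairs of the series passed it, and a ratio under its inverse in 1, where 2.42% did. The interval of the ratio lay above 1 in 5 pairs and below 1 in none. These 5 were 2 pairs at 2700054A10Rik, 2 at Tmem267 and the pair at chr9:124256673-124257856, all with backgrounds between 72.0 and 239 fragments. The pair on chromosome 9 held 262 fragments in the E8.5 list and 336 in the E9.5 list (ratio 1.285, interval 1.09 to 1.52).

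**Figure D3:**
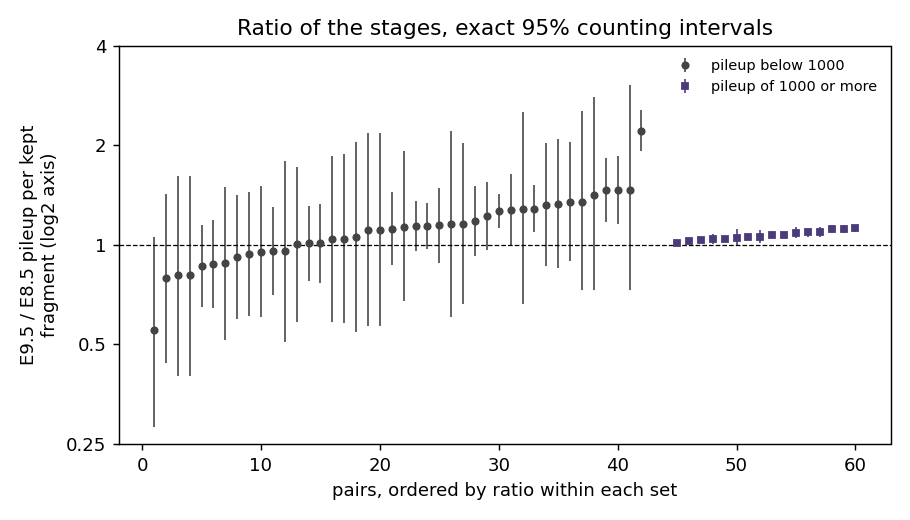
Ratio of E9.5 to E8.5 pileup per kept fragment (log2 axis) with its exact 95% counting interval, for the 42 pairs below 1000 that held at least 20 fragments in a list (circles) and the 16 stacks (squares), ordered by ratio within each set. Circles run from 0.553 to 2.22 with mostly wide intervals that hold 1, and the squares lie between 1.015 and 1.122 with narrow intervals.

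The 75 pairs below 1000 fell into 49 loci, none of which held a stack. Over all 91 pairs and 53 loci, 39 loci held 1 pair and the other 14 held 52 pairs. Chromosome 9 held 15 pairs, of which 12 were stacks, and 45.5% of its 33 E8.5 peaks and 40.5% of its 37 E9.5 peaks recurred. Chromosome 5 held 11 pairs, none of them a stack, which took in 12.4% of its 89 and 11.6% of its 95 peaks. Over all chromosomes used the shares were 17.7% and 13%, but these count the 16 stacks, so they are not a like base. Chromosome 13 held 9 pairs (32.1% of 28 and 20% of 45 peaks) and chromosome 11 held 6 (27.3% of 22 and 35.3% of 17 peaks), all in Sfi1. Chromosome 19 held none, with 10 and 17 peaks in all. Windows of 1 Mb with at least 4 members of each list lay on chromosomes 5, 7, 9, 11 and 17. The summit lay within 1 Mb of a chromosome's first or last gene or peak for 7 recurring peaks below 1000 per list. These were 9.33% and 9.46%, beside 1.65% and 2.67% of the peaks below 1000 without a partner. Of the 7 in each list, 3 formed 1 locus on chromosome 13. The same position held for 11 of the 16 stacks, all at 1 locus of chromosome 9. Over all peaks on these chromosomes, stacks included, the shares were 5.05% and 5.07%.

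Sfi1 held more recurring pairs than any other protein-coding gene. Its human and yeast relatives encode a centrin-binding protein of the centrosome or spindle pole. The RefSeq body of the mouse gene, chr11:3131850-3203347, held 6 pairs. At chr11:3142778-3143105 the pileup was 121 in the E8.5 list and 135 in the E9.5 list with folds of 2.30 and 2.42, the highest of the 6. At chr11:3195761-3196424 it was 114 and 145 with folds of 1.73 and 2.19. At chr11:3153643-3154248 it was 108 and 93, the only pair of the 6 with fewer fragments at E9.5, and its q was 6.25e-06 and 1. The other 3 pairs held 109 and 110, 112 and 128, and 121 and 122 fragments. Every peak stood on an input background between 52.2 and 76.9 fragments, and 3 of the 6 pairs had a q of at most 0.05 at both stages. The gene also held 3 E8.5 peaks and 2 E9.5 peaks without a partner, with pileups from 88 to 119.

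Snhg14 held 4 pairs. This long non-coding gene of the imprinted Prader-Willi and Angelman region hosts arrays of small nucleolar RNAs (snoRNAs) and, in neurons, runs antisense to Ube3a. Its body, chr7:59272737-60450177, holds 206 annotated snoRNA genes, and all 4 pairs lay in an array of 51 of them, each 94 bp long (median) and spaced 2527 bp apart (median). The pileups were 15 in the E8.5 list and 22 in the E9.5 list at chr7:59736763-59737046, and 25 and 26 at chr7:59760051-59760388. They were 48 and 44 at chr7:59768357-59768844, and 29 and 23 at chr7:59773365-59773703. No summit lay on a snoRNA, and the distance from the start of the neighbouring snoRNA on the lower-coordinate side differed between pairs, 546 and 610 bp in the first, 1157 and 1162 bp in the second, 2149 and 1947 bp in the third, and 1877 and 1906 bp in the fourth. The 4 pairs thus shared no common offset within the repeated unit. The second pair had folds of 3.94 and 4.09 and a q of 6.36e-05 and 1.11e-05, and it alone of the 4 had a q of at most 0.05 at both stages. The gene held a single further peak, at E8.5, with 10 fragments.

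**Figure D4:**
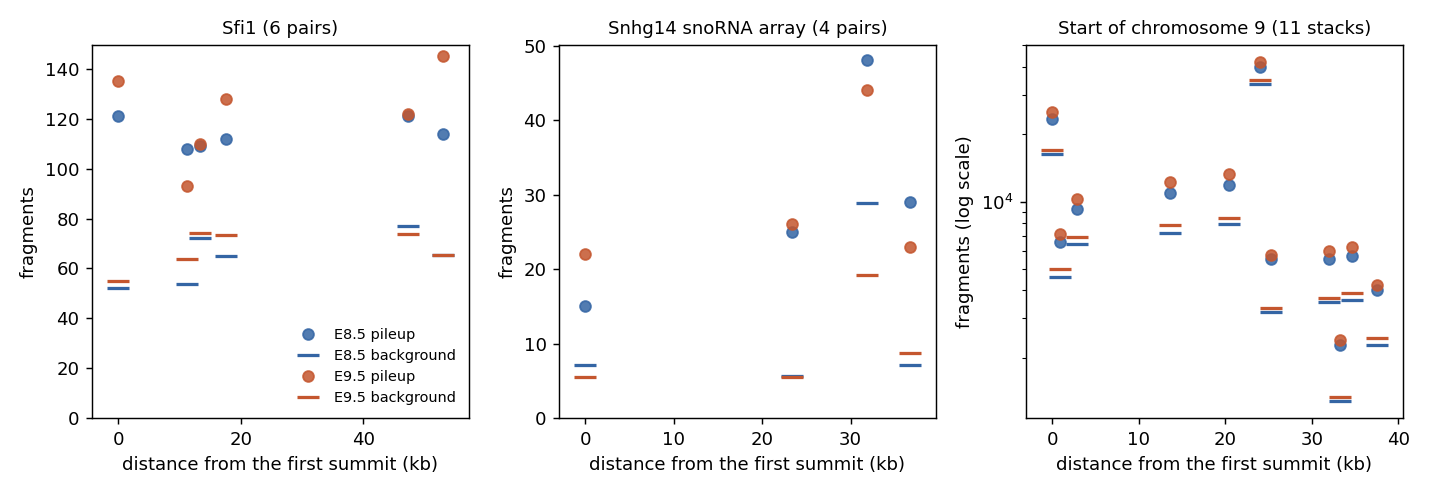
Pileup (circles) and background (bars) in fragments at E8.5 (blue) and E9.5 (orange) against distance from the first summit (kb) for the 6 pairs in Sfi1, the 4 pairs in the Snhg14 snoRNA array and the 11 stacks at the start of chromosome 9 (log scale). Pileups in Sfi1 lie between 93 and 145 over backgrounds between 52.2 and 76.9, those in Snhg14 between 15 and 48, and the stacks between 2275 and 42311.

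The largest counts below 1000 stood on chromosome 17, where chr17:13550689-13655142 held 4 pairs, all with a q of at most 0.05 at both stages. Inside 2700054A10Rik, the E9.5 list held a single peak, chr17:13550689-13553080, with 635 fragments (interval 587 to 686), a fold of 2.65 and a background of 239. The E8.5 list held 2 peaks over the same stretch, chr17:13550689-13551463 with 287 fragments and a fold of 2.30, and chr17:13551804-13553075 with 504 fragments (461 to 550) and a fold of 2.17. The ratio of 2.22 for the first, the highest of all pairs, sets that peak against a summit 1829 bp away. For the second, with summits 6 bp apart, the ratio was 1.262 (interval 1.12 to 1.42). At chr17:13589875-13591573 the pileup was 291 and 331 with folds of 2.94 and 3.09. At chr17:13654615-13655142, beside Gm41530, it was 133 and 162 with folds of 3.33 and 3.90. Among the 18 pairs with a background over 20 fragments in both lists, whose folds ran from 1.46 to 3.33 and from 1.45 to 3.90, this last pair had the highest fold at both stages. At lower coordinates, chr17:13238918-13239335, in Gm36684 and near the sperm motility kinase gene Smok2b, held 11 and 14 fragments, and chr17:13314126-13315119 held 18 and 15.

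Tmem267, which encodes a transmembrane protein, held 2 pairs near the end of chromosome 13 in which the E9.5 pileup was higher. At chr13:119596834-119597100 it was 123 fragments in the E8.5 list and 180 in the E9.5 list (ratio 1.466, interval 1.16 to 1.86), with folds of 1.46 and 1.95. At chr13:119601842-119602872 it was 141 and 206 (ratio 1.463, interval 1.18 to 1.83), with folds of 1.94 and 2.64 and a q of 5.56e-08 and 1.39e-28. The gene also held 2 E9.5 peaks with no E8.5 partner, chr13:119598850-119599159 with 464 fragments over a background of 210 and chr13:119599782-119600585 with 101 over 48.8. The first had the highest pileup of any E9.5 peak below 1000 without a partner. A further pair, chr13:119615338-119615664, held 19 and 21 fragments.

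Deep input also lay under recurring peaks at 5 further loci. At Smo, which encodes the membrane protein that passes the hedgehog signal to the cell interior, chr6:29748015-29748621 held 91 fragments in the E8.5 list and 87 in the E9.5 list over backgrounds of 32.8 and 26.4, with folds of 2.72 and 3.21. The pseudogene Gm13717 also lay within 2 kb of this pair, whose summits were 272 bp apart. Beside Duxf3, chr10:58233368-58233654 held 37 and 49 fragments with folds of 1.68 and 2.14. It lay within 2 kb of Gm4981 as well, and its q was 1 and 0.029. Over the pseudogene Gm20590, chr13:74529597-74530656 held 242 and 275 fragments with folds of 1.47 and 1.60. With no gene within 2 kb, chr2:181930330-181930928 held 128 and 151 with folds of 1.81 and 1.81, and chr3:60045197-60045814 held 94 and 82 with folds of 1.94 and 1.59. Over the 18 pairs with deep input, which lay at 9 loci, the pileup was higher at E9.5 in 15 and the median ratio was 1.16. Over the other 57 pairs the pileup was higher at E9.5 in 32, with a median ratio of 1.057. Neither median is divided by the fragment length ratio of 1.059. The 18 pairs are not separate, since 6 lie in Sfi1 and the 2 at 2700054A10Rik share 1 E9.5 peak. No difference between the 18 and the 57 was tested.

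At the other end, 8 pairs stood on the genome-wide minimum background in both lists, so that the local input did not enter their folds. Their pileups spanned 10 to 26 fragments at E8.5, and 9 to 30 at E9.5. The highest was chr9:68150548-68151287, with no gene within 2 kb, where 26 fragments (interval 17.0 to 38.1) at E8.5 and 30 (20.2 to 42.8) at E9.5 gave folds of 6.66 and 7.49 and a q of 1.68e-11 and 4.21e-15. In the long non-coding gene Gm47990, chr13:38338323-38338654 held 17 fragments at both stages, with a q of 7.61e-04 and 9.33e-04. These were the only 2 of the 8 with a q of at most 0.05 at both stages. In Snx9, which encodes a sorting nexin of endocytosis, chr17:5882770-5883289 held 14 and 16 fragments with a q of 0.0796 in the E8.5 list and 0.00463 in the E9.5 list. At chr13:20670913-20671195 the pileup was 17 and 13, and at chr15:67648160-67648449 it was 15 and 14, and neither had a gene within 2 kb.

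Pairs with a fold above 3 at a stage, on backgrounds of at most 15.2 fragments, lay in several genes of known function. In Pde5a, the gene of a cyclic GMP phosphodiesterase, chr3:122805285-122805745 held 33 fragments in the E8.5 list and 29 in the E9.5 list, with folds of 4.59 and 4.06 and a q of 4.61e-09 and 2.09e-06. Ranbp3l, which encodes a Ran-binding protein, held chr15:9015825-9016324 with 43 and 58 fragments (ratio 1.351, interval 0.895 to 2.05) and folds of 3.38 and 3.65. Its backgrounds were 12 and 15.2, the highest of this group. Nova1, the gene of a neuronal RNA-binding protein that regulates splicing, held chr12:46707752-46708345 with 21 and 17 fragments and folds of 3.33 and 3.52. The q was at most 0.05 at both stages in these 3 genes, with the closest value 0.0311 at E9.5 in Nova1. Galnt13, whose product starts O-linked sugar chains, held 14 fragments at both stages and a q of 0.0796 and 0.838.

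Predicted genes near the start of chromosome 14 held 4 pairs. Gm2977 held chr14:3545597-3546170 with 18 fragments in the E8.5 list and 23 in the E9.5 list. The pseudogene Gm3029 held chr14:3922347-3922820 with 18 and 19. Gm10410 held chr14:4968905-4969339 with 30 fragments at both stages, folds of 2.92 and 2.93 and a q of 0.0045 and 0.00369. Gm3629 held chr14:6636998-6637449 with 29 and 16, the lowest ratio of all pairs at 0.553, and its interval of 0.280 to 1.05 held 1. That ratio sets summits 241 bp apart against each other, and the 2 peaks overlapped by 114 bp.

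Chromosome 5 held 2 groups of small pairs. Between 15473085 and 15690678 bp, 5 pairs lay in or within 2 kb of Gm21149, the long non-coding genes Gm30613 and Gm30417, the pseudogene 4930572O03Rik and Speer4cos, a pseudogene of the Speer family of spermatogenesis-associated genes. Their pileups spanned 10 to 16 fragments for E8.5 and 14 to 19 for E9.5, and none had a q of at most 0.05 at both stages. In Gm30613 the pileup was 10 and 17 with a q of 1 and 0.00209, while in 4930572O03Rik it was 16 and 14 with a q of 0.00706 and 1. The other group, 5 pairs between 94673053 and 94868555 bp, held 9 to 17 fragments for E8.5 and 10 to 15 for E9.5, with 7 E8.5 and 10 E9.5 peaks without a partner among them. No member of this second group had a q of at most 0.05 at either stage.

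Other recurring peaks near genes were small or singular. On chromosome 6, 3 pairs between 47743608 and 47760386 bp, 2 of them in the long non-coding gene Gm52861, held 30 and 34, 47 and 44, and 41 and 54 fragments, and the last 2 had a q of at most 0.05 at both stages. The pair at chr7:104771423-104772239 lay in Usp17le, a gene of the Usp17 deubiquitinase family, with summits 793 bp apart. Its pileup was 18 and 13 and its folds were 4.69 and 2.42. At Obox2, an oocyte-specific homeobox gene, the pileup was 12 and 13. At chr1:171063749-171064098 a pair with 11 and 14 fragments lay inside the IgG receptor gene Fcgr3, and within 2 kb of 4 transfer RNA genes and Mir6546. With no gene within 2 kb, chr7:14771201-14771503 held 21 and 17 fragments with folds of 4.40 and 3.60, and chr16:3139019-3139834 held 23 and 22 with folds of 4.06 and 3.71.

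Of the pairs not yet described, the largest was chr1:133594741-133595238, with 42 fragments in the E8.5 list and 40 in the E9.5 list over backgrounds of 20 and 17.3. Just below the stretch of chromosome 1 that was left out, chr1:84963896-84964363, in the pseudogene Gm15433, held 20 and 21 fragments, and chr1:84990826-84991141 held 19 and 21. At chr13:18937096-18937433 the pileup was 17 and 24, with a q of 0.246 and 2.16e-04. At chr9:3311876-3312284, beyond the stacks of that chromosome, it was 20 and 27, and at chr16:3242057-3242363 it was 26 and 27. On chromosome 18, 3 pairs held 11 to 13 fragments for E8.5 and 13 to 18 for E9.5. Of the smaller pairs without a gene within 2 kb, chr1:88295384-88295893 held 19 and 16 fragments, chr3:92278695-92279059 held 19 at both stages, and chr6:89731327-89731755 held 13 and 14. The last of them were chr13:12904333-12904727 with 12 and 15 fragments, chr5:25946465-25946737 with 10 and 15, and chr7:93217144-93217412 with 12 and 10. None of these pairs had a q of at most 0.05 at both stages, and the interval of the ratio held 1 in each.

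By summit, 34 of the 75 recurring E8.5 peaks below 1000 were placed within a gene that codes for protein or for a long non-coding RNA (45.3%, interval 33.8% to 57.3%) and 33 of the 74 at E9.5 (44.6%, 33.0% to 56.6%). All peaks of these chromosomes did so in 36.7% and 33.3%. Long non-coding genes held 12 (16.0%, interval 8.55% to 26.3%) and 11 (14.9%, 7.66% to 25%). All peaks of these chromosomes lay in them in 7.96% and 8.25%, and peaks without a partner in 6.62% and 7.50%. Protein-coding genes held 29.3% and 29.7%, against 29.8% and 25.2%. Since 6 of the pairs in genes lay in Sfi1 and 4 in Snhg14, these shares count neighbouring peaks of a gene as if they were separate. No gene of any kind lay within 2 kb of 31 of the 75 pairs. The same share over all peaks is not given here, so this count is a description only.

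With genes extended by 2 kb, 19 of 18294 protein-coding genes on these chromosomes held a recurring peak of both lists (0.104%), and 9 of 10908 long non-coding genes did (0.0825%). Of 17769 predicted genes, 24 did (0.135%), and of 1154 snoRNA genes 8 did (0.693%), all 8 in the Snhg14 array. Most of these 8 also count among the 24 predicted genes, so the 2 shares are not separate. The recurring peaks overlapped none of the 8, which count only through the extension by 2 kb. A peak of any kind, recurring or not, lay at 143 of the 18294 protein-coding genes at E8.5 and at 185 a day later, so genes with any peak were rare in general. No recurring peak lay at any of 417 zinc finger genes, of which 3 and 3 held any peak, of 606 vomeronasal receptor genes, of which 7 and 6 did, or of 1385 olfactory receptor genes, of which none did. Among 27 genes of hedgehog signalling on these chromosomes Smo alone held a peak of any kind, and among 16 genes of 6mA enzymes and H3K9 methylation none did.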

How the data were processed

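DNA 6mA MeDIP-seq peak lists of 1 E8.5 and 1 E9.5 brain library were analysed. The submitters' processing notes name cutadapt 1.9.2, Bowtie2 2.2.4 and the build mm10. Per the file headers, the authors ran MACS 2.1.1.20160309 on each library with paired fragments, at an uncorrected p-value of 0.01 and with a shared input as control. The deposited pileup is a signal, the fragment coverage at the summit. The deposited fold enrichment is a ratio of pileup to background, each with 1 added. The deposited p-value and q-value are given as −log10. The headers say that q-values were not calculated, yet the column holds values, which were used as listed.

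The background was solved from the pileup and the fold, and counted as the genome-wide minimum within 0.005 of the lowest of its list. Raised member backgrounds were compared with multiples of a fixed step, within a tolerance of 0.01 steps. For E8.5 the step was 0.8005, and 46 of 62 backgrounds were whole steps. For E9.5 it was 0.7992, and 45 of 62 were. The input is scaled by 1.601 (E8.5) or 1.598 (E9.5), so a step is less than a whole scaled input fragment. Overlap needed 1 bp. Genes and sequences came from RefSeq tables on GRCm38.p6, which give gene bodies without exons, so exons and introns were not told apart. Pileups carry exact Poisson intervals, shares exact Clopper-Pearson intervals, and ratios of pileups per kept fragment exact conditional binomial intervals. PCR copies are not independent molecules. No test was made, because each stage had 1 library.

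The members, gene lists and naming rule were chosen with earlier results of these data known. The rule named all stacks, the 12 pairs of highest mean fold rank, pairs at protein-coding genes with a q of at most 0.05 in both lists, the 4 highest and 4 lowest ratios among pairs with at least 20 fragments in a list, the cases nearest each threshold, and windows with at least 4 members of each list. The other members were named after their values were seen. A member that the rule named is not reported here, though it stays in the counts. Alternatives covered other overlaps, stricter q, other gene extensions and windows rich in peaks. The pairing and interval steps were tested on simulated data. Versions were Python 3.11.15, numpy 2.4.6, scipy 1.17.1, pandas 2.3.3 and matplotlib 3.10.9.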

Additional observations from a re-analysis of the deposited data

How the results depend on the processing

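For 12 results below 1000 fragments, 65 values were recomputed, each result under the settings that apply to it. Of these, 52 stayed within the interval of the value or within 1.5 times the count, and 13 did not. A reversal could be scored only for the median ratio of the stages, and that ratio did not reverse. With a q of at most 0.05 in both lists, 25 E8.5 and 24 E9.5 peaks remained, with 8.0% of the E8.5 peaks on the minimum background, 60.0% and 58.33% in genes, a median fold of 3.155 at E9.5 and 9 protein-coding genes. A q of at most 0.001 left 18 and 17 peaks. Genes extended by 10 kb gave 36 protein-coding genes. Alternatives added after seeing the data counted 8 and 8 peaks on the minimum background in both lists, and 49 loci. The counts moved because the settings count fewer peaks, more genes or loci in place of peaks, and the cause of the moved shares and the moved fold was not tested. Leaving out a replicate was not possible with 1 library per stage. No paired analysis was possible because each stage had a single library. Depth limits the small pairs, whose intervals of the ratio mostly held 1.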
